A study of Mus musculus with 3 samples.

Results

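Heparan sulphate and chondroitin sulphate are long sugar chains attached to proteoglycan core proteins at the cell surface and in the matrix, and the 53 genes described here encode the enzymes that build, sulphate and trim them. The genes were taken from the deposited table by symbol: the heparan sulphate 2-O, 3-O and 6-O sulphotransferases (Hs2st, Hs3st and Hs6st), the Ndst, Ext, Extl, Sulf, Chst, Chsy, Chpf, Xylt and B3gat families, and Glce, B4galt7, B3galt6, Ust, Dse, Hpse, Papss1 and Papss2. They were 53 of the 20308 genes in the table. Symbols alone chose them, and 9 of the 53 act mainly on other glycans (keratan sulphate, the HNK-1 epitope or protein-linked sugars).

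RNA sequencing was done on satellite cells, the stem cells of skeletal muscle, from Pax7-ZsGreen mice aged 3 months, in which the transcription factor Pax7 drives the green fluorescent protein ZsGreen. Hindlimb muscle pooled from several animals was digested and about 200000 ZsGreen-positive cells were sorted for each of the 3 libraries. The labels give the tissue as tibialis anterior. The 3 libraries are replicates 1, 2 and 3 of a single untreated group, so there is no contrast between conditions, and the labels do not say whether they came from separate pools: every error below covers only how these 3 samples differed, which could be technical variation.

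Values are TPM, the share of each transcript among all measured, corrected for its length and scaled to a common total. Levels of different genes can therefore be compared, but read depth is unknown, and a value of 0 may be a failed estimate. Only transcripts were measured, not the enzymes, their activity or the chains. A gene is called above 1 TPM when limma's moderated test of log2(TPM + 0.1) against that level gave a Benjamini-Hochberg adjusted p under 0.05 over all 12822 genes above 0 in at least 1 library. Means are given ± SD with n = 3.

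All 14 satellite cell markers checked were above 1 TPM and summed to between 8582 and 9081 TPM, with Sdc4, Myod1 and Des the highest. Marker lists of other muscle cells were checked too. Of 10 fibro-adipogenic markers, 6 were above 1 TPM (summed level 2171 to 2456 TPM, led by Gsn, Col3a1 and Dpt). So were 9 of 9 endothelial (1639 to 2891, led by Fabp4, Ly6c1 and Cldn5) and 5 of 6 tendon markers (221 to 336, led by Thbs4, Fmod and Comp). Pericyte and smooth muscle markers were above in 5 of 8 (451 to 512, led by Notch3, Acta2 and Tagln). Schwann cell markers were above in 4 of 6 (152 to 249, with Pmp22 and Mbp among the highest). Leukocyte markers were above in 3 of 7 (228 to 277, led by Cd74, Lyz2 and Ptprc), with Cd3e listed at 0. Of all genes tested, 60.8% were above 1 TPM, so counts near that share do not show that a cell type was present. Among defining markers, Pdgfra was at 4.98, 0.11 and 0.06 TPM in replicates 1 to 3, and Ptprc averaged 9.92 TPM. On the pericyte and smooth muscle list, Pdgfrb averaged 3.48 and Kcnj8 4.55 TPM, both undecided, and Cnn1 was called below 1 TPM. The Schwann cell marker Sox10 was at 2.64, 1.23 and 0 TPM. S100b (Schwann cell) and Scx (tendon) were above 0 in replicate 3 alone, at 12.02 and 8.63 TPM. Sox10, S100b and Scx were undecided. The endothelial markers Pecam1, Tek and Cdh5 were higher, with means of 40.45, 37.69 and 34.09 TPM. Pax7 itself averaged 51.42 TPM. The part of these other cells in the levels below was not tested. Fewer cells of a type cannot be told apart from less RNA per cell.

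Both chains start from the same linker of 4 sugars on a serine of the core protein. The next sugar decides the chain: N-acetylglucosamine leads to heparan sulphate and N-acetylgalactosamine to chondroitin sulphate. Heparan sulphate is then N-sulphated, epimerised and O-sulphated in patches, and the sulphation pattern decides how it binds growth factors such as FGF2 and HGF, which act on satellite cells. Dermatan sulphate is chondroitin sulphate in which glucuronic acid has been epimerised.

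The main pattern was uneven transcript levels of isozymes within some steps but not all, for both chains and for the sulphate donor. By summed TPM, Ndst1 held 85.3% of N-sulphation, Chst11 81.4% of chondroitin 4-O-sulphation and Papss1 96.1% of the donor step. Sulf1 held 98.7% of heparan sulphate editing and Hs3st3b1 89.2% of the 3-O step. The heparan sulphate 6-O step was more even, with Hs6st2 at 53.1%. Top shares were also lower for chain building, with Ext1 at 44.8% for heparan sulphate and Chpf at 52.6% for chondroitin sulphate. Dse held 43.3% of the dermatan and disulphated chondroitin group and B4galt7 46.2% of the linker. Chst7 averaged 53.2% of chondroitin 6-O-sulphation but ranged from 0 to 91.4% between libraries. No such shares were worked out for other gene families. Of the 53 genes, 19 were above 1 TPM, 19 were not decided, 15 were listed at 0 in every library and 0 were called below 1 TPM. The 15 at 0 are 28.3% of the members, against 36.9% of all genes in the table. The 19 called are 19 of 38 tested, against 60.8% of all genes tested (and 2.18% of them called below), so the called share of the members was not above that of the table. The median level was 3.33 TPM over all 53 genes, against 2.24 TPM for the whole table, and 7.17 TPM for the 38 members above 0 somewhere, against 11.5 TPM for all such genes. By branch, 12 of 24 heparan sulphate genes and 5 of 13 chondroitin and dermatan sulphate genes were above 1 TPM. So were 1 of 5 linker genes, 1 of 2 sulphate donor genes and 0 of the 9 genes for other glycans. These totals include genes listed at 0, which were not tested: 7, 1, 1, 0 and 6 in that order. The 60.8% is over tested genes only. Adjusted p-values for single genes below are from the same limma fit.

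**Figure D1:**
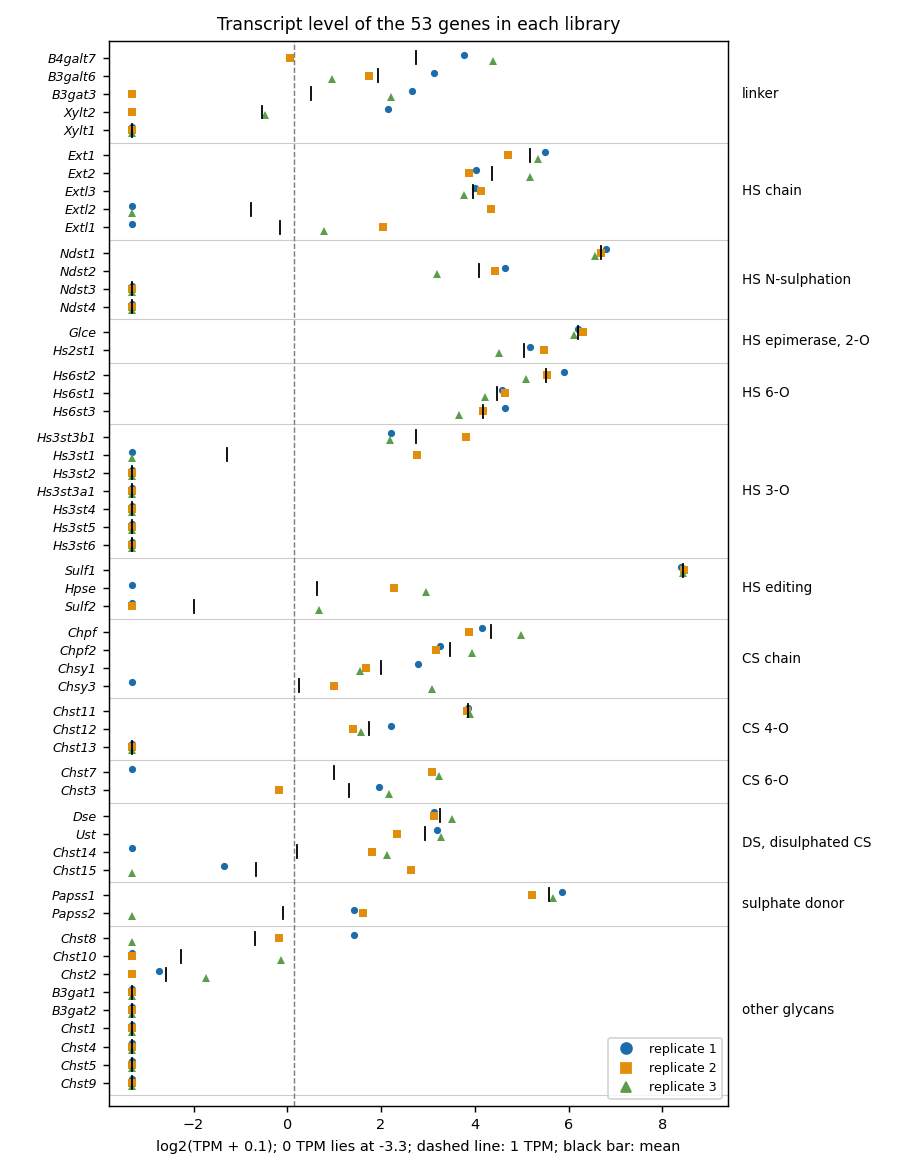
Level of each of the 53 genes in each library on the log2(TPM + 0.1) scale, grouped by step; symbols are replicates, black bars are means on that scale and the dashed line is 1 TPM. Sulf1, Ndst1 and Glce lie farthest right with their 3 libraries close together, and 15 genes lie at 0 TPM in all libraries.

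Start-site sequences are shown for 6 genes to set isozymes of the same step that were listed at 0 beside isozymes above 1 TPM (Ndst2 and Ndst3, and 3 Hs3st genes), with Glce as the matched gene of highest level. CG dinucleotides, the letters that cytosine methylation acts on, were counted in them. RefSeq windows (GRCm38.p6, 250 bases before to 50 after the start) matched 43 of the 53 genes. They are written 5′ to 3′ on the gene's strand with each CG in capitals, and the 6 were chosen after their values were seen. Glce (chr9:62122560-62122859, minus strand) and Ndst2 (chr14:20734513-20734812, minus) were above 1 TPM, whereas the Ndst2 paralogue Ndst3 (chr3:123619401-123619700, minus) was listed at 0. Hs3st3b1 (chr11:63922235-63922534, minus) was above 1 TPM, whereas Hs3st3a1 (chr11:64435082-64435381, plus) and Hs3st4 (chr7:123982578-123982877, plus) were listed at 0.
Glce: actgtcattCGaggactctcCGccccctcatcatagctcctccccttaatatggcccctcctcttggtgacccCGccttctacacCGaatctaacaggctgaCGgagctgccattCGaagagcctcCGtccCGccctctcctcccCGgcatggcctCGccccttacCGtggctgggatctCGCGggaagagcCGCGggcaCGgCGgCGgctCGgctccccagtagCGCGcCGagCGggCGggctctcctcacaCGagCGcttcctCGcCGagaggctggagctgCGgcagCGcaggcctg
Ndst2: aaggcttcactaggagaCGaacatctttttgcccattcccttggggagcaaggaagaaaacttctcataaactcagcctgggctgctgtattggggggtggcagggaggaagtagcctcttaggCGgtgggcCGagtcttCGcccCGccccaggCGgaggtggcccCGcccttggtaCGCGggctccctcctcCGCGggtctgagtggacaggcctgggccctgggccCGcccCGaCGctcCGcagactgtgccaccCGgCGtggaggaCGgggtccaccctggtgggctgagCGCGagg
Ndst3: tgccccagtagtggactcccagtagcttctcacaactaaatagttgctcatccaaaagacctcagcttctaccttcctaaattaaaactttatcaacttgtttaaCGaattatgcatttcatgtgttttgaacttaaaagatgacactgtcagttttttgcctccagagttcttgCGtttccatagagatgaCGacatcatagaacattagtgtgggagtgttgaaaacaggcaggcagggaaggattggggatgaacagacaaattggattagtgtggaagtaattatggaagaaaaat
Hs3st3b1: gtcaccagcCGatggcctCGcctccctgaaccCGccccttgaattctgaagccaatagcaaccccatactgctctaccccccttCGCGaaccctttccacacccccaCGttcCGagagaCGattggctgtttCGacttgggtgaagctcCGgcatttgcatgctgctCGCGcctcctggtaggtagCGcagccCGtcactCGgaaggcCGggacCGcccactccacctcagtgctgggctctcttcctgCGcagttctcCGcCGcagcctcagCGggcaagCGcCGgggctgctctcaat
Hs3st3a1: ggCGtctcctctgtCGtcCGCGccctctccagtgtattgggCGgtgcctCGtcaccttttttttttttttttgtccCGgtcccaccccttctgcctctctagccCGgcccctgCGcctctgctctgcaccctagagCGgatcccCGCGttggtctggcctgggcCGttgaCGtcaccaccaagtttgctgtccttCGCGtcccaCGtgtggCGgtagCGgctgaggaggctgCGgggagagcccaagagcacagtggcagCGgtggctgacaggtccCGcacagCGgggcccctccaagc
Hs3st4: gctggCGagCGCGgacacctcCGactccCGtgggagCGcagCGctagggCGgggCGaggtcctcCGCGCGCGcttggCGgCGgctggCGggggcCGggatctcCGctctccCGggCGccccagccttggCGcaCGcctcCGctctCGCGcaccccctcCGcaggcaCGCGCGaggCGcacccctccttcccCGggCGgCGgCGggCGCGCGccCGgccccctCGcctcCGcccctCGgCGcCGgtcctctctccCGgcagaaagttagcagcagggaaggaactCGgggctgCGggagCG
The window held 30 CG for Glce, 20 for Ndst2 and 3 for Ndst3. Ndst3 had 2 windows, and that shown lies inside the annotated gene (chromosome 3, 123526166 to 123690853), away from its upstream end. The other windows shown lie at the upstream end of their gene. Hs3st3b1 and Hs3st3a1 had the same number, 23, although 1 of them was listed at 0, and Hs3st4, also at 0, had 47.

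Over the 43 matched genes, each taken by its window with the most CG, the median was 11.5 CG for the 10 listed at 0, 26 for the 3 above 0 to 1 TPM, 23.5 for the 18 at 1 to 10 TPM and 28.5 for the 12 at 10 to 100 TPM. The same classes over all genes of the table with a window had medians of 4, 14, 19 and 24 CG (n = 5513, 1077, 3393 and 3976). A lower median for genes listed at 0 is thus also found in the table at large. The table medians rose at each class, whereas those of members did not. Members above 100 TPM had no window. The lowest counts among members were 1 for Chst1, 3 for B3gat1, 3 for Ndst3 and 5 for Chst4, all listed at 0. B4galt7, with 8, was the lowest of those at 10 to 100 TPM. Of all 32851 windows of this length, 94.6% held at least 1 CG (the motif reads the same on both strands), and the count is a description of these letters only, since methylation was not measured.

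**Figure D2:**
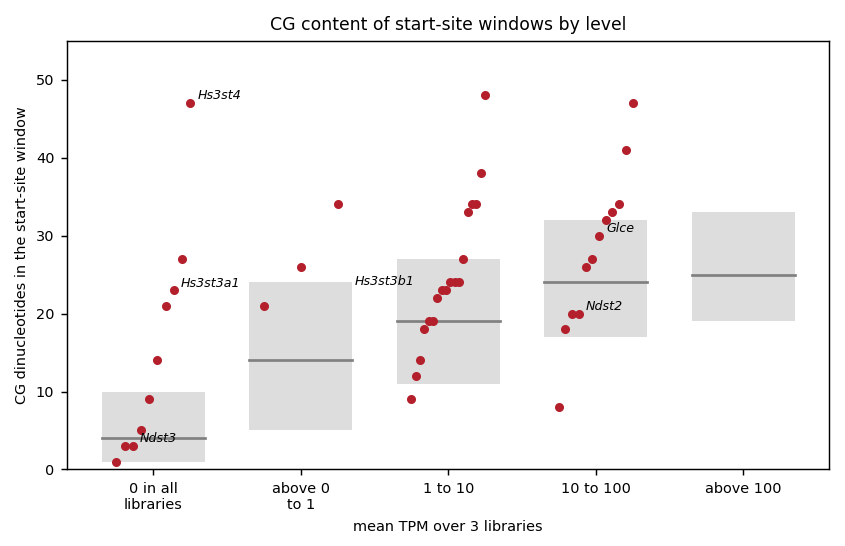
Number of CG dinucleotides in the start-site window of the 43 matched genes (points) by mean level; grey boxes span the 25th to 75th percentile of all genes in the class and grey lines their median. Members listed at 0 spread from 1 to 47, and the 12 at 10 to 100 TPM from 8 to 47.

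Transcripts of the linker enzymes, on which both chains depend, stood at low levels. Of 5 genes, only B4galt7, the galactosyltransferase that adds the sugar after xylose, was above 1 TPM (chromosome 13, 55599896 to 55610443, GRCm38), and it gave 13.48, 0.94 and 20.85 TPM in replicates 1, 2 and 3 (log2 level over 1 TPM 2.60 ± 0.90 SE, adjusted p = 0.0298). Replicate 2 lay at about 1 TPM and the others far above it, and the call was lost without replicate 1 (adjusted p = 0.105) or 3 (0.208). B3galt6, which adds the next galactose, gave 8.59, 3.24 and 1.84 TPM and stayed undecided (adjusted p = 0.127). B3gat3, which completes the linker with glucuronic acid, was at 6.22, 0 and 4.50 TPM.

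The xylosyltransferases, which place the xylose that begins every chain, were barely represented. Xylt2 was at 4.36, 0 and 0.62 TPM, and Xylt1 was listed at 0 in all 3 libraries. Summed over the 5 genes, the linker step came to 32.7, 4.18 and 27.8 TPM in replicates 1 to 3. Replicate 2 was the lowest, and 3 of the genes, B4galt7, B3gat3 and Xylt2, were each lowest there. Among enzymes of the linker region that the symbol rule did not take, the xylose kinase Fam20b was above 1 TPM at 32.7 ± 9.38 TPM.

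Transcripts for the enzymes that commit a linker to each chain were present. Extl3, which adds the N-acetylglucosamine that starts heparan sulphate (chromosome 14, 65052060 to 65149855), was at 15.85, 17.38 and 13.54 TPM (adjusted p = 4.05e-06). Csgalnact2, which adds the N-acetylgalactosamine that starts chondroitin sulphate and is not 1 of the 53, was at 69.37, 65.01 and 42.37 TPM. Csgalnact2 lay above Extl3 in every library, without overlap, by 3.70-fold on the TPM + 0.1 scale (log2 difference of Extl3 from Csgalnact2 -1.89 ± 0.24). Its paralogue Csgalnact1 averaged 19.2 ± 8.30 TPM. For this and every pair whose libraries shared a direction, 11 of 16 pairs, the exact sign-flip permutation p was 0.25, two-sided, the smallest that 3 libraries allow.

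The heparan sulphate polymerase is a complex of Ext1 and Ext2. Ext1 (chromosome 15, 53064038 to 53346159) gave 44.89, 26.13 and 40.51 TPM (adjusted p = 1.79e-08), and Ext2 (chromosome 2, 93661028 to 93822568) gave 16.16, 14.49 and 36.08 TPM (adjusted p = 1.93e-06). Ext1 was higher in 3 of 3 libraries, by 0.83 ± 0.65 on the log2 scale, but the ranges overlapped and the gap in replicate 3 was 0.17. Extl2, an N-acetylglucosaminyltransferase that can cap the linker, was detected in replicate 2 alone, at 20.13 TPM next to 17.38 TPM for Extl3, and replicates 1 and 3 list it at 0. Extl1 gave 0, 4.03 and 1.63 TPM, a level that the test left undecided.

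Most of the transcript of the N-sulphation step came from a single gene. Ndst1, the N-deacetylase and N-sulphotransferase that opens the chain to all later changes, gave 110.36, 103.21 and 94.93 TPM (102.8 ± 7.72, adjusted p = 2.83e-11). Ndst2, which in mast cells makes heparin, gave 24.84, 21.33 and 9.04 TPM (adjusted p = 8.06e-06). Ndst1 lay above Ndst2 in 3 of 3 libraries without overlap, 6.06-fold (log2 2.60 ± 0.68), and made up 85.3% ± 5.26 of the summed TPM of the step. Ndst3 and Ndst4 were listed at 0 in all libraries.

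The C5 epimerase Glce, which turns glucuronic into iduronic acid, and Hs2st1, which sulphates that iduronic acid, have no paralogue among the 53 that does the same on heparan sulphate. Glce (chromosome 9, 62057248 to 62122655) gave 73.12, 79.22 and 68.86 TPM (adjusted p = 1.17e-10), the third highest mean of the 53. Hs2st1 (chromosome 3, 144429706 to 144570181) gave 36.13, 44.29 and 22.82 TPM (adjusted p = 4.15e-08). Both genes were highest in replicate 2 and lowest in replicate 3.

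All 3 of the 6-O-sulphotransferases were above 1 TPM, the only step with more than 2 genes in which every gene was called. Hs6st2 (X chromosome, 51387212 to 51681856) led with 59.64, 46.47 and 34.13 TPM (adjusted p = 5.13e-09). Hs6st1 gave 23.70, 25.02 and 18.42 TPM (adjusted p = 2.47e-07) and Hs6st3 gave 25.07, 18.03 and 12.62 TPM (adjusted p = 2.31e-06). Hs6st2 lay above Hs6st1 in every library without overlap, 2.05-fold (log2 difference of Hs6st1 from Hs6st2 -1.03 ± 0.25), while Hs6st1 and Hs6st3 overlapped.

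The shares within the 6-O step varied less than its total. Hs6st2 made up 53.1% ± 1.67, Hs6st1 26.0% ± 3.61 and Hs6st3 20.9% ± 1.99 of the summed TPM, although that sum was 108, 89.5 and 65.2 TPM in replicates 1 to 3. Hs2st1 exceeded Hs6st1 in 3 of 3 libraries, by 0.58 ± 0.26 on the log2 scale, with overlapping ranges. Between 0.51% and 10.8% of the 31-base words of these 3 transcripts also occur in another annotated gene. The 10.8% is for Hs6st1, shared first with Gm37335, which overlaps 8.07% of its exon length, and next with Hs6st3. Words common to the 3 genes were not counted separately, but can be at most these shares.

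The 3-O-sulphotransferases, which add the rarest sulphate of the chain, were represented by few genes. Hs3st3b1, the close paralogue of Hs3st3a1, gave 4.56, 13.87 and 4.45 TPM (adjusted p = 0.00703), with replicate 2 about 3 times the others. Without replicate 2 it was no longer above 1 TPM (adjusted p = 0.12). Hs3st1, which makes the antithrombin-binding site of heparin, reached 6.66 TPM in replicate 2 and is listed at 0 in the other libraries. Hs3st2, Hs3st3a1, Hs3st4, Hs3st5 and Hs3st6 were listed at 0 in all libraries. Of the 31-base words of Hs3st3b1, 9.81% recur in other genes, Hs3st3a1 first among them, so its level and the 0 of Hs3st3a1 (44.5% shared, chiefly with the overlapping F930015N05Rik) depend on how such reads were divided.

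**Figure D3:**
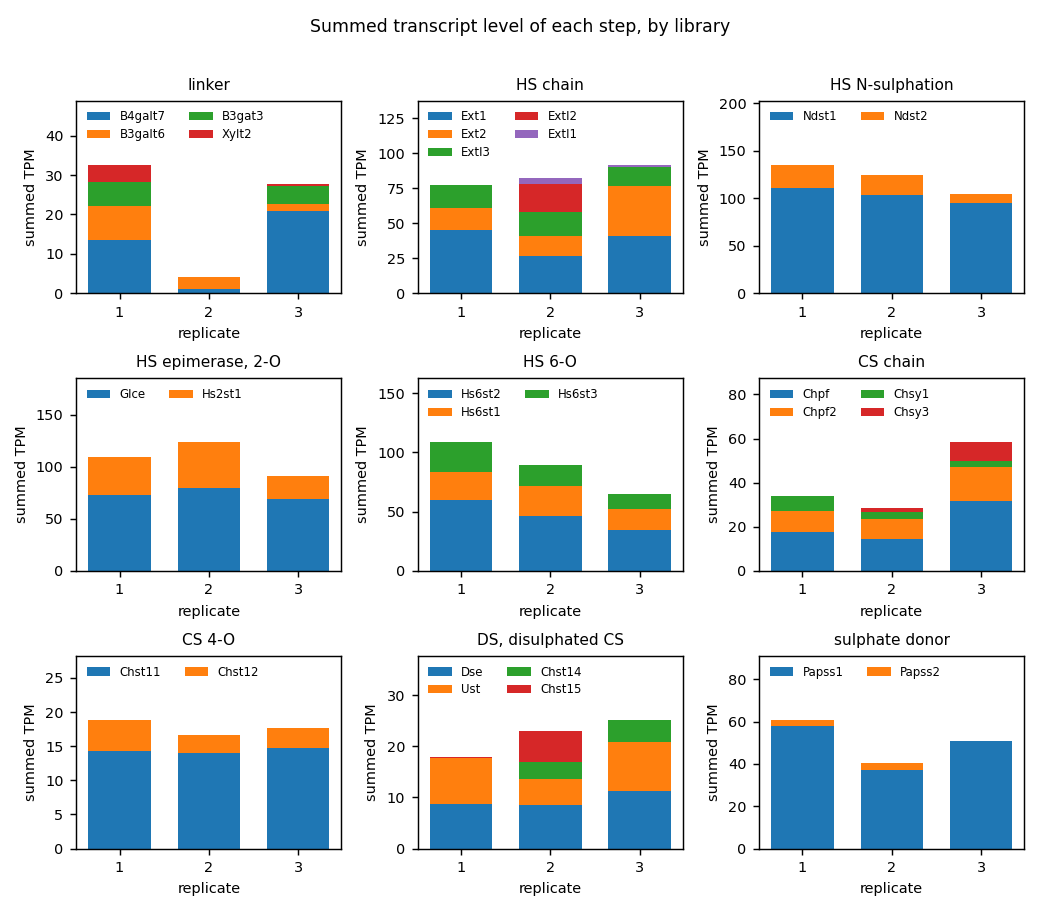
Summed TPM of 9 steps in each library (replicates 1 to 3 on the horizontal axis), stacked by gene; genes listed at 0 in all libraries are left out and each panel has its own vertical scale from 0. Ndst1 fills most of the N-sulphation bars, the 3 Hs6st genes keep similar proportions, and the linker bar of replicate 2 is low at 4.18 TPM.

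Sulf1 was the most abundant of the 53 genes. It encodes an extracellular sulphatase that removes 6-O-sulphate from finished heparan sulphate and so changes how growth factors bind it. Sulf1 (chromosome 1, 12692277 to 12861192) gave 338.70, 354.53 and 346.00 TPM (346.4 ± 7.92, adjusted p = 6.02e-13), rank 488 of the 20308 genes. Its paralogue Sulf2, which removes the same sulphate, reached 1.49 TPM in replicate 3 and is listed at 0 in the other libraries, so the lowest Sulf1 value, 338.70 TPM, stood far above the highest Sulf2 value.

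Sulf1 alone exceeded the sum of the 3 6-O-sulphotransferases in every library, 339 against 108, 355 against 89.5 and 346 against 65.2 TPM. It held 98.7% ± 1.29 of the summed TPM of the genes that edit finished chains. The remaining editing gene, Hpse (heparanase, which cuts the chain), gave 0, 4.76 and 7.69 TPM and stayed undecided. None of the 31-base words of the longest Sulf1 transcript occurred in another annotated gene.

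The 2 branches were also summed. The 13 chondroitin and dermatan sulphate genes summed to 74.7, 77.5 and 115 TPM, against 434, 440 and 357 TPM for the 21 heparan sulphate genes other than the editing genes. The heparan sulphate sum includes its chain starter Extl3, whereas the starters Csgalnact1 and Csgalnact2 are not among the 53, and with them the chondroitin sum was 157, 171 and 172.5 TPM. The sums cover different numbers of genes and are given without a test.

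Among chondroitin chain-building genes, transcript levels were higher for the polymerising factors than for the synthases. Chpf, the partner that lets the synthases make long chains (chromosome 1, 75474569 to 75479307), gave 17.80, 14.64 and 31.74 TPM (adjusted p = 1.24e-06), and Chpf2 gave 9.50, 8.95 and 15.34 TPM (adjusted p = 9.73e-05). Chpf was higher than Chpf2 in 3 of 3 libraries by a steady 0.88 ± 0.17 on the log2 scale, although the ranges over libraries overlapped. In Chpf2, 44.1% of the exon length overlaps Smarcd3 or Mir671, and strand handling is not given, so its value is uncertain.

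The synthases themselves were not decided. Chsy1 was at 6.83, 3.11 and 2.82 TPM (adjusted p = 0.0953) and Chsy3 at 0, 1.90 and 8.33 TPM (adjusted p = 0.96). Which of them was higher changed between libraries: Chsy1 in replicates 1 and 2, Chsy3 in replicate 3.

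The 4-O-sulphotransferases were led by Chst11, the main enzyme of chondroitin 4-sulphate. Chst11 (chromosome 10, 82985498 to 83195900) gave 14.26, 14.06 and 14.72 TPM (adjusted p = 7.29e-06), with an SD of 0.03 on the log2 scale, as small as that of Sulf1 at a far lower level. Chst12 gave 4.54, 2.55 and 2.89 TPM and was not decided (adjusted p = 0.187). Chst11 exceeded Chst12 4.34-fold in 3 of 3 libraries without overlap (log2 2.12 ± 0.43), and Chst13 was listed at 0.

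For 6-O-sulphation of chondroitin neither gene was decided. Chst3 was at 3.78, 0.79 and 4.38 TPM and Chst7 at 0, 8.44 and 9.38 TPM. Chst3 was the higher in replicate 1 and Chst7 in replicates 2 and 3, so no order between them can be given.

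Dermatan sulphate needs an epimerase and its own 4-O-sulphotransferase. Dse, the epimerase, gave 8.62, 8.59 and 11.23 TPM (adjusted p = 0.000284). It lay below Glce, the epimerase of heparan sulphate, in 3 of 3 libraries without overlap, with Glce 7.76-fold higher (log2 difference of Dse from Glce -2.96 ± 0.31). Its relative Dsel, which the symbol rule did not take, averaged 6.64 ± 6.17 TPM. The sulphotransferase Chst14 gave 0, 3.39 and 4.25 TPM and stayed undecided.

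Ust, which sulphates the uronic acid of these chains, gave 9.05, 4.93 and 9.60 TPM (adjusted p = 0.00196). Chst15, which adds a further sulphate to chondroitin 4-sulphate, gave 0.29, 6.16 and 0 TPM and stayed undecided. Ust was higher than Chst15 in replicates 1 and 3 but not in replicate 2.

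**Figure D4:**
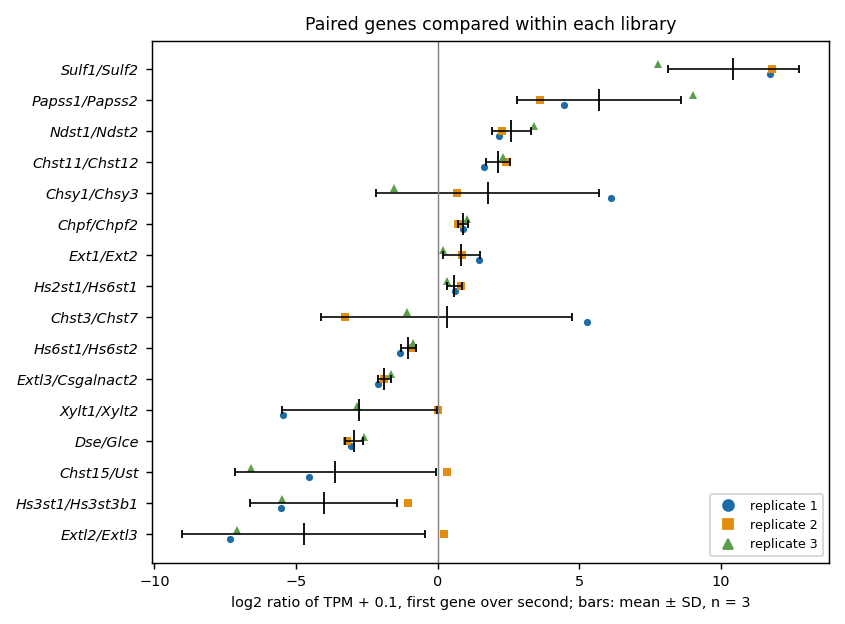
Log2 ratio of TPM + 0.1 between the genes of 16 pairs in each library (symbols), with mean and SD over the 3 libraries; the grey line is equal level. Pairs whose genes were both above 0 in every library, such as Ndst1/Ndst2 at 2.60 ± 0.68, have narrow bars, and ratios with a gene at 0 depend on the added 0.1.

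All of these sulphotransferases use the donor PAPS, made by Papss1 and Papss2. Papss1 (chromosome 3, 131564768 to 131643671) gave 58.05, 37.32 and 50.76 TPM (adjusted p = 2.62e-09). Papss2, the form prominent in cartilage, gave 2.56, 2.96 and 0 TPM and stayed undecided. Papss1 lay above Papss2 in every library without overlap and made up 96.1% ± 3.69 of their sum.

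The 9 genes for other glycans were near or at 0. Chst1, Chst4, Chst5, Chst9, B3gat1 and B3gat2 were listed at 0 in all libraries, among them the keratan sulphate enzyme Chst1 and the HNK-1 glucuronyltransferases B3gat1 and B3gat2. Chst8, which sulphates the sugars of pituitary hormones, was at 2.59, 0.79 and 0 TPM. Chst10, the HNK-1 sulphotransferase, was at 0, 0 and 0.81 TPM, and Chst2 at 0.05, 0 and 0.20 TPM.

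How far the libraries agreed depended on level. For the 14 members at 10 to 100 TPM the median SD of log2(TPM + 0.1) was 0.42, against 0.44 for the 5220 genes of the table in that range. For the 19 members at 1 to 10 TPM it was 2.79, against 2.32 for 4553 genes. Sulf1 and Ndst1, above 100 TPM, had SDs of 0.03 and 0.11, and the median of the 1545 genes there was 0.17. At the other end, Extl2 had an SD of 4.42 and B4galt7 of 2.34, both above the 90th percentile of genes in their range of level (3.87 and 1.92).

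Being at 0 in exactly 1 library was more frequent among members than in the table, but being at 0 in 2 libraries was not. Of the 53 genes, 23 were above 0 in all libraries, 11 were at 0 in 1 library and 4 at 0 in 2 libraries. The share at 0 in exactly 1 library was 20.8% of members and 8.52% of all genes in the table, and the share at 0 in 2 libraries was 7.55% and 9.72%. These shares were not matched for level. Members above 0 somewhere had a median of 7.17 TPM, against 11.5 TPM for all such genes, and the part of level in the difference was not tested. Of the 38 members above 0 somewhere, 9 (23.7%) were at 0 in replicate 1, 5 (13.2%) in replicate 2 and 5 (13.2%) in replicate 3. For all genes above 0 somewhere, the shares in replicates 1 to 3 were 15.2%, 12.6% and 16.5%. Together the 53 genes held 0.0944%, 0.0922% and 0.0906% of all TPM in replicates 1 to 3, and Sulf1 was the largest part of each sum.

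**Figure D5:**
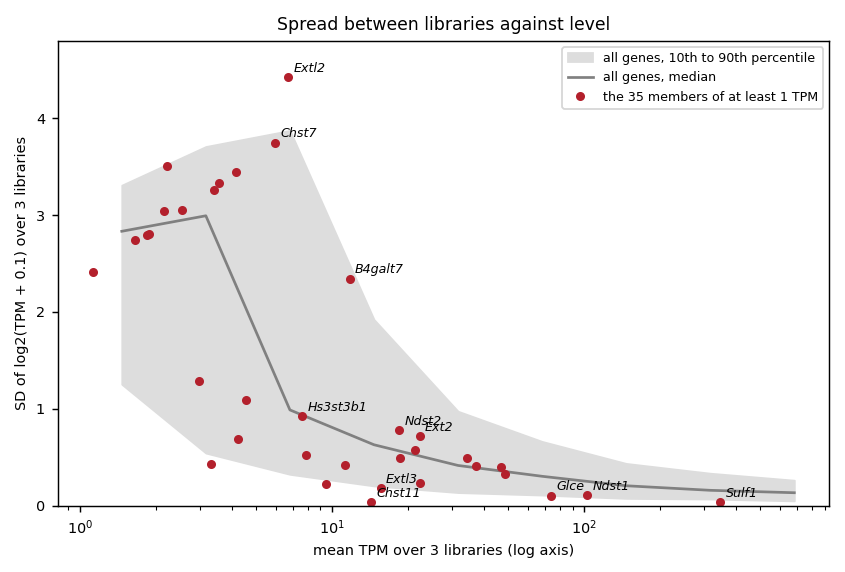
SD of log2(TPM + 0.1) over the 3 libraries against mean TPM (log axis) for the 35 members of at least 1 TPM (red); the grey band spans the 10th to 90th percentile and the grey line the median of all genes. Sulf1 (SD 0.03) and Chst11 (0.03) lie low, and Extl2 (4.42) lies above the band.

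Other genes of the pathway, from 7 lists, were above 1 TPM in 46 of 63 tested, or 73.0%, against the 60.8% of all genes tested. Of 9 genes that make the sugar precursors, 8 were above 1 TPM, led by Uap1, which makes UDP-N-acetylglucosamine, at 465.7 ± 22.8 TPM, then Gfpt2 at 213 ± 22.0 TPM, the entry enzyme of that route, and Ugp2 at 138 ± 30.6 TPM. Ugdh, which makes UDP-glucuronic acid, averaged 103.6 ± 4.88 TPM. Of 11 genes of sulphate and nucleotide sugar transport and PAPS clearance, 8 were above 1 TPM. Highest was Impad1, the Golgi phosphatase that clears used PAPS, at 44.0 ± 9.16 TPM. The UDP-glucuronic acid carrier Slc35d1 followed at 31.2 ± 10.3 TPM, then Bpnt1 at 23.6 ± 14.8 TPM. Impad1 and Bpnt1 are phosphatases, not carriers. Slc35b2, which carries PAPS into the Golgi, averaged 17.9 ± 11.0 TPM, and the sulphate carrier Slc26a1 was listed at 0.

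Breakdown enzymes were divided. Of 15 genes of lysosomal breakdown, 8 were above 1 TPM and 7 were not decided. Among the highest were Sumf1, which activates all sulphatases including Sulf1, at 35.8 ± 8.81 TPM and Hexa at 24.7 ± 16.5 TPM. Those not decided included the heparan sulphate enzymes Sgsh (0.48 TPM on average), Naglu (1.74 TPM) and Idua (1.39 TPM).

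Core proteins for both chains were measured alongside. Of 14 heparan sulphate core proteins 12 were above 1 TPM, and Sdc4 made up most of their summed 4853, 4793 and 4410 TPM; Tgfbr3 (135 ± 14.3 TPM) and Gpc1 (113 ± 24.9 TPM) came next, and Gpc5 was listed at 0. Of 11 chondroitin and dermatan sulphate core genes 5 were above and 1, the cartilage gene Acan, below 1 TPM, led by Dcn at 128 ± 41.9 TPM, Bgn at 109 ± 16.8 TPM and Smc3, a cohesin subunit also described as a proteoglycan, at 90.9 ± 12.9 TPM. Bcan and Epyc were listed at 0. Dcn is also on the fibro-adipogenic marker list. Among hyaluronan synthases, which make the unsulphated relative of these chains, Has1 averaged 70.3 ± 7.08 TPM and was above 1 TPM, while Has2 was at 2.89, 0 and 2.78 TPM.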

How the data were processed

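RNA of sorted cells was isolated with a Picopure kit, per the labels' protocols. Per the submitters' processing notes, RSEM 1.2.3, Bowtie 0.12.9, CASAVA 1.8 and the build mm10 were used; neither the role of each nor the annotation or strand setting is stated there. The authors deposited 1 table of TPM, and its name says that mitochondrial genes were removed and values renormalised. Read depth is unknown, so no counting interval is given.

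On log2(TPM + 0.1), an intercept with a variance trend was fitted by limma 3.58.1 (R 4.3.3) and tested, two-sided, against 1 TPM for 12822 genes, with Benjamini-Hochberg adjustment. Pairs were compared as log2 ratios within libraries (exact sign-flip permutation test, two-sided), and sums, shares and spreads carry no test. Positions are from GENCODE on GRCm38, the assembly of mm10. The longest transcript of each gene was cut into 31-base words, and those found in any transcript of another gene, on either strand, were counted as shared.

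The members, lists and pairs were chosen with earlier results of these data known. All members are accounted for, each library is given for paired genes and for the highest and lowest genes of a step, and the 3 highest and the zeros of other lists are named; other genes were chosen after their values were seen. A few listed genes are left out of the text. Listed genes without a row were not used. The alternatives tried were other pseudocounts and filters, no variance trend, rescaled libraries and leaving out each replicate.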

Additional observations from a re-analysis of the deposited data

How the results depend on the processing

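The number of members above 1 TPM was 19 and stayed between 18 and 20 under every alternative tried. The number called below 1 TPM was 0, and became 1 with a pseudocount of 1 or without a variance trend (Chst2 in both) and 16 without a filter, where the 15 genes listed at 0 in all libraries were tested as well. B4galt7 lost its call with a pseudocount of 1, without a filter and without a variance trend (limma adjusted p = 0.059, 0.107 and 0.132) as well as without replicate 1 or 3. Hs3st3b1 lost it only without replicate 2. Calls gained were Chsy1 (genes of at least 1 TPM on average, or no variance trend), Chst12 (no variance trend), Chst7 and Hpse (without replicate 1) and B3galt6 (without replicate 3). No call changed with a pseudocount of 0.01 or with rescaled libraries. The log2 ratio of Chst3 to Chst7 was 0.31, became -0.36 with a pseudocount of 1 and ran from -2.17 (without replicate 1) to 2.10 when 1 replicate was left out; that of Chsy1 to Chsy3 was 1.76 and ran from -0.42 (without replicate 1) to 3.40. The median spread between libraries was 0.72 for the 35 members of at least 1 TPM and between 0.47 (without replicate 2) and 0.57 when 1 replicate was left out. No paired contrast between conditions was possible because the 3 libraries form 1 group. Read depth is unknown, so genes near or at 0 cannot be ordered, and genes listed at 0 are not shown to be absent.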
